A study of Rattus norvegicus with 12 samples.

Results

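The genes described here encode lysosomal enzymes and their activators, lysosomal membrane proteins and the autophagy machinery of a rat oligodendroglial cell line (OLN). They were named by a list of 39 genes, 20 enzymes and activators, 5 membrane proteins and 14 autophagy genes. Affymetrix probe sets were matched to them by the symbol, older symbols included, or by the gene number in the deposited annotation. A probe set was found for 38 of the 39, and 36 were measured, meaning that at least 1 of their probe sets was called present on at least 2 of 12 arrays. These were 18 enzymes, all 5 membrane proteins and 13 autophagy genes, of 9132 genes measured in all. Ctsc and Ctsz (cathepsins C and Z) were called present on 0 arrays, and Gabarapl1 was not matched to a probe set. Where a gene had several measured probe sets, the one with the highest mean signal stood for it.

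All groups carried the same stably expressed alpha-synuclein, so no group lacks it. The cells were transfected with Fugene-6, either with the empty pcDNA3.1 vector (mock) or with the same vector carrying p25alpha, also called TPPP, which binds tubulin in oligodendrocytes. Cells were harvested for RNA at 8, 12 and 16 h in 2 experiments, giving 6 groups of 2 arrays and 6 pairs of a p25alpha and a mock array. Whether the experiments came from separate cultures is not stated in the labels. The p-values therefore reflect only the spread between these arrays, part of which may be technical, and precision is limited by the number of arrays.

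Lysosomes break down proteins, lipids and glycans with acid hydrolases, which are delivered as precursors and work behind a membrane rich in glycoproteins such as LAMP1 and LAMP2. Autophagy brings cytoplasmic cargo, protein aggregates among it, to the lysosome in vesicles that form on ATG proteins and carry lipid-linked ATG8 family proteins (LC3 and GABARAP). The transcription factor TFEB switches on many of these genes in human cells through a DNA element built around the letters CACGTG.

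Each array had 49.3% to 55.2% of its 31096 probe sets called present, and 19248 were tested. Among the markers of the oligodendrocyte lineage, 10 of 13 were measured. Sox10, a transcription factor of the lineage, had a geometric mean signal of 518, Pdgfra, a receptor of progenitors, 1456 and Cnp, a myelin enzyme, 1623. Olig2 and Mobp were called present on 0 arrays and Mbp on 5. Of 11 microglia and macrophage markers, which matter here because such cells are rich in lysosomes, 2 were measured, Csf1r and Cd14, and their summed signal was 114.6 to 183.6 in mock and 102.2 to 218.5 in p25alpha cells. Aif1, Ptprc, Itgam, Cx3cr1 and Cd68 were called present on 0 arrays. Of the markers of astrocytes 5 of 7 were measured, of neurons 7 of 7 and of fibroblasts and smooth muscle 5 of 8, and by limma none of any marker list passed the threshold between p25alpha and mock cells. Being measured took only 2 present calls. Of the neuronal markers, Tubb3 and Stmn2 were called present on 2 arrays, Syt1 on 3, Nefl on 5, Rbfox3 on 6, Snap25 on 11 and Map2 on 12. No probe set was matched to Tppp, so the transfected transcript was not analysed here. Bulk RNA of this kind cannot tell fewer transfected cells from less RNA per cell.

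The letters CACGTG were searched in the RefSeq promoter windows (assembly GRCr8, 250 bases before to 50 after each gene's start, both strands, on which the motif reads the same), which cover 30 of the 39 genes. They occurred in 8 of the 30 (26.7%), Atg3, Atg5, Cd63, Ctsd, Gaa, Glb1, Lamp1 and Mcoln1, and in 7.08% of the windows of all 27457 genes. The longer TCACGTGA, which contains CACGTG and was added after the first counts had been seen, was in 4 of the 30 (13.3%) and in 0.896% of all windows. TCACGTGA preceded by G and followed by C, the full palindrome, was in 0 of the 30 and in 0.280% of all. The 4 genes with TCACGTGA are shown because they are the closest to that element, with CACGTG in capitals and each sequence 5′ to 3′ on the gene's strand. For Ctsd (chr1:206968822-206969071, minus strand) and Atg3 (chr11:69159281-69159530, minus strand) the 250 bases before the start are given, and for Mcoln1 (chr12:6358250-6358279, plus strand) and Lamp1 (chr16:83075111-83075140, minus strand) 30 bases around 1 match.
Ctsd: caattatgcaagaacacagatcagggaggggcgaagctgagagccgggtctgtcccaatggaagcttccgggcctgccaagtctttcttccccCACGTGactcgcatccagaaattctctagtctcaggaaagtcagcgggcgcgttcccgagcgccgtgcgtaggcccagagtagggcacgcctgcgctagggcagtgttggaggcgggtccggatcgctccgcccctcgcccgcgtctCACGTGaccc
Atg3: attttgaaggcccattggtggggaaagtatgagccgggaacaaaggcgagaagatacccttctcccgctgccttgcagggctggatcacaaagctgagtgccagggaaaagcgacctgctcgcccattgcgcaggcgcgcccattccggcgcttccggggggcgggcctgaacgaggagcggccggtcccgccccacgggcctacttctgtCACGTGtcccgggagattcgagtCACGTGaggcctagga
Mcoln1: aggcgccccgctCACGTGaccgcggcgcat
Lamp1: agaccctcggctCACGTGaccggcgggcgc
A match is a description of the letters and not evidence of binding. Over the 3 times the log2 differences between p25alpha and mock cells of these 4 genes were -0.16 ± 0.09 for Ctsd, -0.01 ± 0.10 for Atg3, -0.37 ± 0.11 for Mcoln1 and -0.13 ± 0.09 for Lamp1, none past the threshold of the test described next.

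Whether p25alpha changed these genes was asked at each time and over the 3 times together, by limma on log2 signals with the experiment number as a block and with p-values adjusted by Benjamini-Hochberg over all tested probe sets. None of the 36 genes passed an adjusted p of 0.05 at 8, 12 or 16 h, over the 3 times or in the test of whether the difference depended on time. In simulated data the same fit called 8 of 50 probe sets changed by 0.5 over the 3 times, with 7 false calls in the whole run. The changed probe sets were drawn at random from all tested ones, dim ones included. The share called was not measured for probe sets as bright as most of these genes. How far a count of 0 excludes changes of that size in these genes was therefore not settled. The background over all tested probe sets was 0% called at 8 h, 0.0571% at 12 h, 0.0571% at 16 h, 0.239% over the 3 times (0.208% higher, 0.0312% lower) and 0% for time dependence. At an unadjusted p under 0.05, limma gave 1 of the 36 genes at 8 h (2.78%, beside 4.88% of all tested probe sets), 4 at 12 h (11.1% beside 9.33%), 6 at 16 h (16.7% beside 8.66%) and 9 over the 3 times (25% beside 14%). Of the 9, 2 had a positive and 7 a negative difference, while over all tested probe sets 1566 were positive and 1127 negative at this level. The 9 were singled out after their values were seen. Of the 36 genes, 30 lay above the median signal of the tested probe sets. These shares therefore set mostly bright probe sets beside a background with a larger share of dim ones. The part of brightness in the differing shares was not tested. The count of 0 depended on the setting: over the 3 times Arsb and Gusb passed with only probe sets above the median signal, with an offset of 50 before log2 and with eBayes with trend and robust, and Sqstm1 also passed with the last.

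Over the 3 times, 18 genes had a positive and 18 a negative difference between p25alpha and mock cells. Their median was -0.0020 on the log2 scale beside 0.01 for all tested probe sets. The medians were -0.07 for the enzymes (8 positive, 10 negative), -0.04 for the membrane proteins (2 and 3) and 0.05 for the autophagy genes (8 and 5). By time, the enzymes had 8 positive and 10 negative differences at 8 h. They had 6 and 12 at 12 h, and 4 and 14 at 16 h. The autophagy genes had 6 and 7 at both 8 and 12 h, and 9 and 4 at 16 h. The membrane proteins had 2 and 3 at each time. Medians at 16 h were -0.11 for the enzymes and 0.14 for the autophagy genes. All tested probe sets had 0.01, with 48.6% negative. The 95% intervals of all 36 for the mean over the 3 times lay between -0.65 (Asah1) and 0.50 (Arsa). A change of 1 on the log2 scale in that mean was outside each of them. The intervals, that of the dim Glb1 among them, were not adjusted for the number of genes. They treat the 3 times within an experiment as independent and include no separate term for a p25alpha effect that differs between the 2 experiments. At single times they were wider and could reach past 1 in size, with -1.15 to -0.40 for Arsb at 12 h and -1.10 to 0.04 for Asah1 at 16 h. In none of the 36 were all p25alpha arrays above or below all mock arrays, a pattern seen in 0.431% (above) and 0.265% (below) of all tested probe sets. The difference had the same sign in all 6 pairs for 1 gene on the positive side, Sqstm1, and for 4 on the negative side, Ctsl, Hexa, Psap and Wipi1. Over all tested probe sets this was so in 5.99% on the positive and 5.01% on the negative side.

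**Figure D1:**
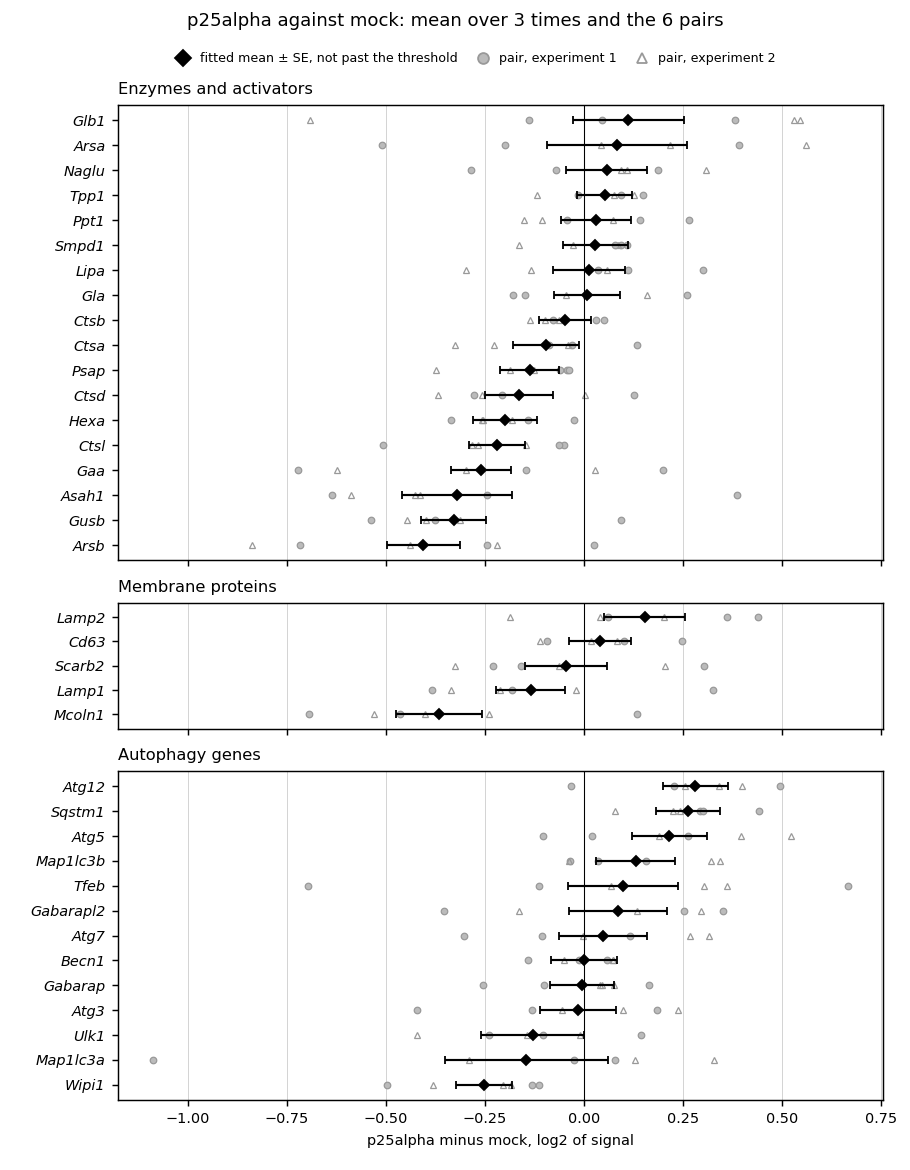
Difference in log2 signal between p25alpha and mock cells for 36 genes in 3 classes. Diamonds with bars are the fitted mean over 3 times ± SE, none past the threshold, and grey points are the 6 pairs, circles for experiment 1 and triangles for experiment 2; 18 means lie on each side of 0.

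Among the enzymes, Arsb, Gusb, Gaa, Hexa and Ctsl had an unadjusted p under 0.05 over the 3 times, all with a negative difference; Arsb, Gusb and Gaa were chosen for description after their values were seen. Arsb, the sulfatase that removes sulfate from dermatan sulfate, had signals of 479 and 440 in mock and 487 and 378 in p25alpha cells at 8 h, 563 and 634 in mock and 343 and 354 in p25alpha cells at 12 h, and 492 and 544 in mock and 415 and 401 in p25alpha cells at 16 h. At 12 and 16 h both p25alpha arrays lay below both mock arrays, and at 8 h the groups overlapped. The difference over the 3 times was -0.41 ± 0.09 (SE, adjusted p = 0.157 by limma), -0.31 in experiment 1 and -0.50 in experiment 2, with 5 of 6 pairs negative. At 12 h it was -0.78 ± 0.16 (adjusted p = 0.287 by limma). A second Arsb probe set gave -0.19 ± 0.10 over the 3 times.

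Gusb, the beta-glucuronidase of glycosaminoglycan breakdown, had signals of 378 and 434 in mock and 404 and 349.8 in p25alpha cells at 8 h, 462 and 403 in mock and 319 and 296 in p25alpha cells at 12 h, and 424 and 442 in mock and 327 and 336 in p25alpha cells at 16 h. Both p25alpha arrays lay below both mock arrays at 12 and 16 h, but not at 8 h. The difference was -0.33 ± 0.08 (adjusted p = 0.183 by limma), -0.27 in experiment 1 and -0.38 in experiment 2. Both other measured Gusb probe sets gave a negative difference, -0.25 ± 0.10 with all 6 pairs negative, and -0.20 ± 0.14.

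Gaa, the acid alpha-glucosidase that degrades glycogen in lysosomes, had signals of 159.7 and 175 in mock and 184 and 179 in p25alpha cells at 8 h, 227 and 226 in mock and 137 and 147 in p25alpha cells at 12 h, and 188 and 235 in mock and 169.9 and 192 in p25alpha cells at 16 h. The p25alpha arrays were the lower ones at 12 h, and at 8 h both were above both mock arrays. The difference was -0.67 ± 0.13 at 12 h (adjusted p = 0.26 by limma) and -0.26 ± 0.08 over the 3 times. In mock cells alone the difference of 12 h from 8 h was 0.43 ± 0.13 (adjusted p = 0.947 by limma). The other Gaa probe set gave 0.03 ± 0.11 over the 3 times.

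Hexa, the alpha subunit of the hexosaminidase that degrades GM2 ganglioside, had signals of 876 and 779.6 in mock and 861 and 687 in p25alpha cells at 8 h, 1079 and 737 in mock and 855 and 618 in p25alpha cells at 12 h, and 1036 and 908 in mock and 940.2 and 760.2 in p25alpha cells at 16 h. The p25alpha array was the lower one of each pair, but the groups overlapped across experiments. The difference was -0.20 ± 0.08 (adjusted p = 0.337 by limma), -0.17 in experiment 1 and -0.23 in experiment 2. Ctsl, the cysteine protease cathepsin L, had signals of 2691 and 4511 in mock and 2598 and 4081 in p25alpha cells at 8 h, 2621 and 4403 in mock and 2511 and 3660.2 in p25alpha cells at 12 h, and 3323 and 4817 in mock and 2338 and 3963 in p25alpha cells at 16 h. Within each experiment every p25alpha array lay below every mock array of Ctsl, while the experiments themselves lay apart. Its difference was -0.22 ± 0.07 (adjusted p = 0.257 by limma), and a second Ctsl probe set gave 0.01 ± 0.06.

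Psap, the precursor of the saposins that help hydrolases reach sphingolipids, had signals between 1616 and 1865 (median 1769) in mock and between 1387 and 1812 (median 1589) in p25alpha cells. Its difference was -0.14 ± 0.08 (adjusted p = 0.468 by limma), negative in all 6 pairs, -0.05 in experiment 1 and -0.23 in experiment 2. Ctsd, the aspartic protease cathepsin D, which degrades alpha-synuclein in lysosomes, had signals between 680.2 and 1216 (median 970.3) in mock and between 555 and 1195 (median 851) in p25alpha cells, with a difference of -0.16 ± 0.09 and 4 of 6 pairs negative. Asah1, the acid ceramidase, also chosen after its values were seen, had signals between 374 and 656 (median 531) in mock and between 348 and 489 (median 418) in p25alpha cells, and its difference of -0.32 ± 0.14 carried one of the wider errors among the enzymes. A second Asah1 probe set gave -0.36 ± 0.12 with all 6 pairs negative. The probe set of Glb1, the lysosomal beta-galactosidase, was called present on 5 arrays and absent on all 4 p25alpha arrays at 12 and 16 h, with signals of at most 28.6, so its fitted difference rests on signals called absent and is not read here.

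**Figure D2:**
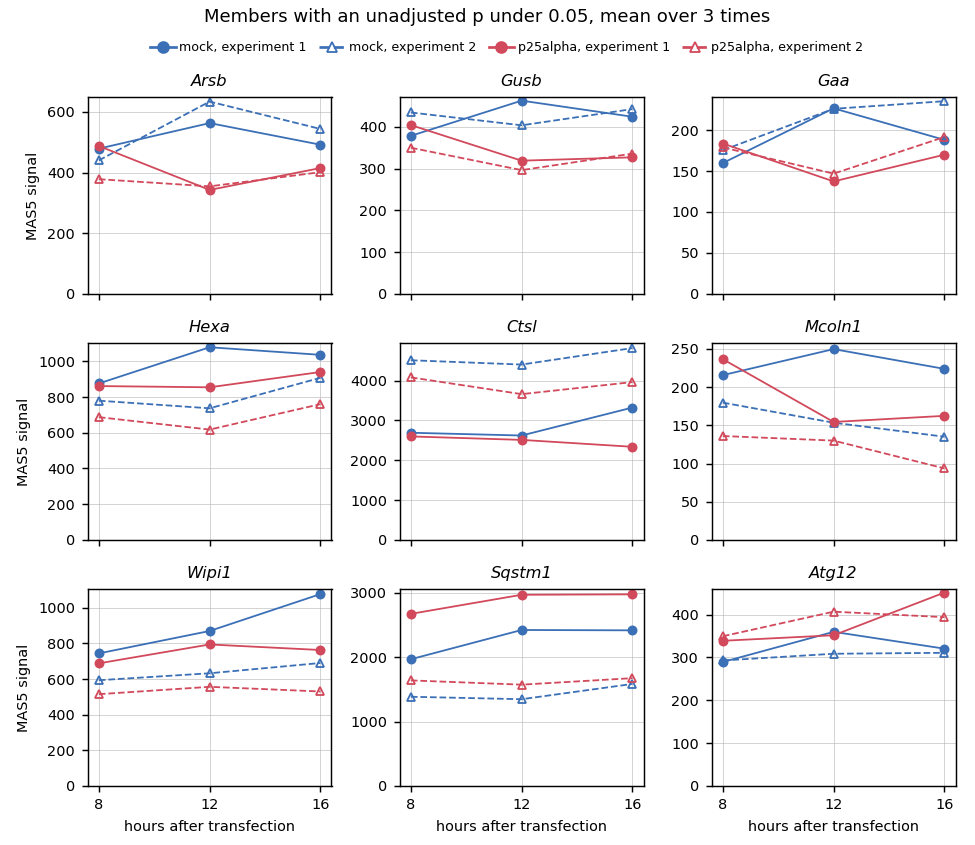
MAS5 signal (linear, from 0) against hours after transfection for the 9 genes with an unadjusted p under 0.05 over the 3 times, mock in blue and p25alpha in red, experiment 1 as filled circles and experiment 2 as open triangles. Each point is 1 array; for Arsb and Gusb the p25alpha points lie below the mock points at 12 and 16 h, and for Sqstm1 above the mock point of the same experiment at each time.

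Of the 5 membrane proteins, Mcoln1, the lysosomal calcium channel mucolipin 1, had an unadjusted p under 0.05. Its signals were 216 and 179.7 in mock and 237 and 136 in p25alpha cells at 8 h, 249.8 and 153 in mock and 154 and 130 in p25alpha cells at 12 h, and 224 and 135 in mock and 162 and 93.6 in p25alpha cells at 16 h. The p25alpha array was the lower one in 5 of 6 pairs, the exception being experiment 1 at 8 h. The difference was -0.37 ± 0.11 (adjusted p = 0.233 by limma), -0.34 in experiment 1 and -0.39 in experiment 2, a ratio of 1.29 of mock over p25alpha.

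Lamp1, a heavily glycosylated protein that lines the lysosomal membrane, had signals between 1089.6 and 1449.8 (median 1281) in mock and between 1049.6 and 1565 (median 1093) in p25alpha cells and a difference of -0.13 ± 0.09. At 16 h both p25alpha arrays of Lamp1 were below both mock arrays, a difference of -0.36 ± 0.15 (adjusted p = 0.571 by limma). Lamp2, its relative that also serves as the receptor of chaperone-mediated autophagy, had signals between 1749 and 2647 (median 2205) in mock and between 2252 and 2576 (median 2344) in p25alpha cells and a difference of 0.15 ± 0.10, 0.29 in experiment 1 and 0.02 in experiment 2. A second Lamp2 probe set gave 0.02 ± 0.07. The p25alpha and mock arrays overlapped for both Lamp1 and Lamp2. Cd63, a tetraspanin of late endosomes, had signals between 6539 and 8552 (median 7946) in mock and between 7018 and 9059 (median 7813) in p25alpha cells and a difference of 0.04 ± 0.08. Scarb2, the receptor that carries beta-glucocerebrosidase to lysosomes, had signals between 117 and 150 (median 139) in mock and between 114 and 163 (median 131) in p25alpha cells and a difference of -0.04 ± 0.10.

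Among the autophagy genes, Sqstm1, Atg12 and Wipi1 had an unadjusted p under 0.05 over the 3 times; Atg12, and Atg5 with it, were chosen for description after their values were seen. Sqstm1, the cargo receptor p62 that binds ubiquitinated protein and LC3, had signals of 1969 and 1386 in mock and 2675 and 1640 in p25alpha cells at 8 h, 2424 and 1347 in mock and 2972 and 1574 in p25alpha cells at 12 h, and 2419 and 1585 in mock and 2979 and 1675 in p25alpha cells at 16 h. The p25alpha array was the higher one in all 6 pairs, but arrays of experiment 1 lay above those of experiment 2 in both arms. The difference was 0.26 ± 0.08 (adjusted p = 0.243 by limma), a ratio of 1.2 of p25alpha over mock, 0.35 in experiment 1 and 0.18 in experiment 2. Of the 3 other measured Sqstm1 probe sets, 2 were also positive in all 6 pairs (0.31 ± 0.20 and 0.29 ± 0.10) and the dimmest gave 0.08 ± 0.27.

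Atg12, the ubiquitin-like protein that is joined to ATG5, had signals of 289 and 293 in mock and 339 and 349.6 in p25alpha cells at 8 h, 359.9 and 309 in mock and 352 and 407 in p25alpha cells at 12 h, and 321 and 311 in mock and 452 and 394 in p25alpha cells at 16 h. At 8 and 16 h both p25alpha arrays lay above both mock arrays, and at 12 h they overlapped. The difference was 0.28 ± 0.08 (adjusted p = 0.228 by limma), 0.23 in experiment 1 and 0.33 in experiment 2, with 5 of 6 pairs positive. Both other Atg12 probe sets were positive as well, 0.42 ± 0.15 and 0.17 ± 0.08. Atg5, its partner in the conjugate, had signals between 162 and 199 (median 183) in mock and between 176 and 238 (median 208) in p25alpha cells and a difference of 0.22 ± 0.09, while its other probe sets gave -0.04 ± 0.08 and 0.31 ± 0.11.

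Wipi1, which binds phosphatidylinositol 3-phosphate on forming autophagosomes, had signals of 744 and 593 in mock and 688 and 515 in p25alpha cells at 8 h, 870.1 and 633 in mock and 794 and 556 in p25alpha cells at 12 h, and 1077 and 690.2 in mock and 763 and 530.2 in p25alpha cells at 16 h. The p25alpha array was the lower one in all 6 pairs, and at 16 h both lay below the mock array of their experiment by the widest margin, -0.44 ± 0.12 (adjusted p = 0.424 by limma). Over the 3 times the difference was -0.25 ± 0.07 (adjusted p = 0.215 by limma), -0.25 in experiment 1 and -0.26 in experiment 2. The other Wipi1 probe set, present on 8 arrays, gave -0.04 ± 0.15.

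The ATG8 family, whose proteins are attached to the autophagosome membrane, had no common direction. Map1lc3b had signals between 388 and 712 (median 582) in mock and between 493 and 730.4 (median 587) in p25alpha cells and a difference of 0.13 ± 0.10, while its other probe set gave -0.06 ± 0.13. Gabarap had signals between 1705 and 2829 (median 1979) in mock and between 1796 and 2401 (median 2103) in p25alpha cells and a difference of -0.0049 ± 0.08, and Gabarapl2 between 690.4 and 839 (median 733) in mock and between 634 and 909 (median 872) in p25alpha cells and 0.09 ± 0.12. The other probe sets gave -0.04 ± 0.13 for Gabarap and 0.08 ± 0.09 for Gabarapl2. Map1lc3a, called present on all 6 arrays of experiment 1 and on 0 of experiment 2, had signals between 73.1 and 158 (median 91.3) in mock and between 59.8 and 114 (median 85.5) in p25alpha cells and a difference of -0.14 ± 0.21. Tfeb itself had signals between 34.7 and 68.1 (median 47.4) in mock and between 42.0 and 58.4 (median 53.3) in p25alpha cells and a difference of 0.10 ± 0.14, with pairs from -0.70 to 0.67.

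**Figure D3:**
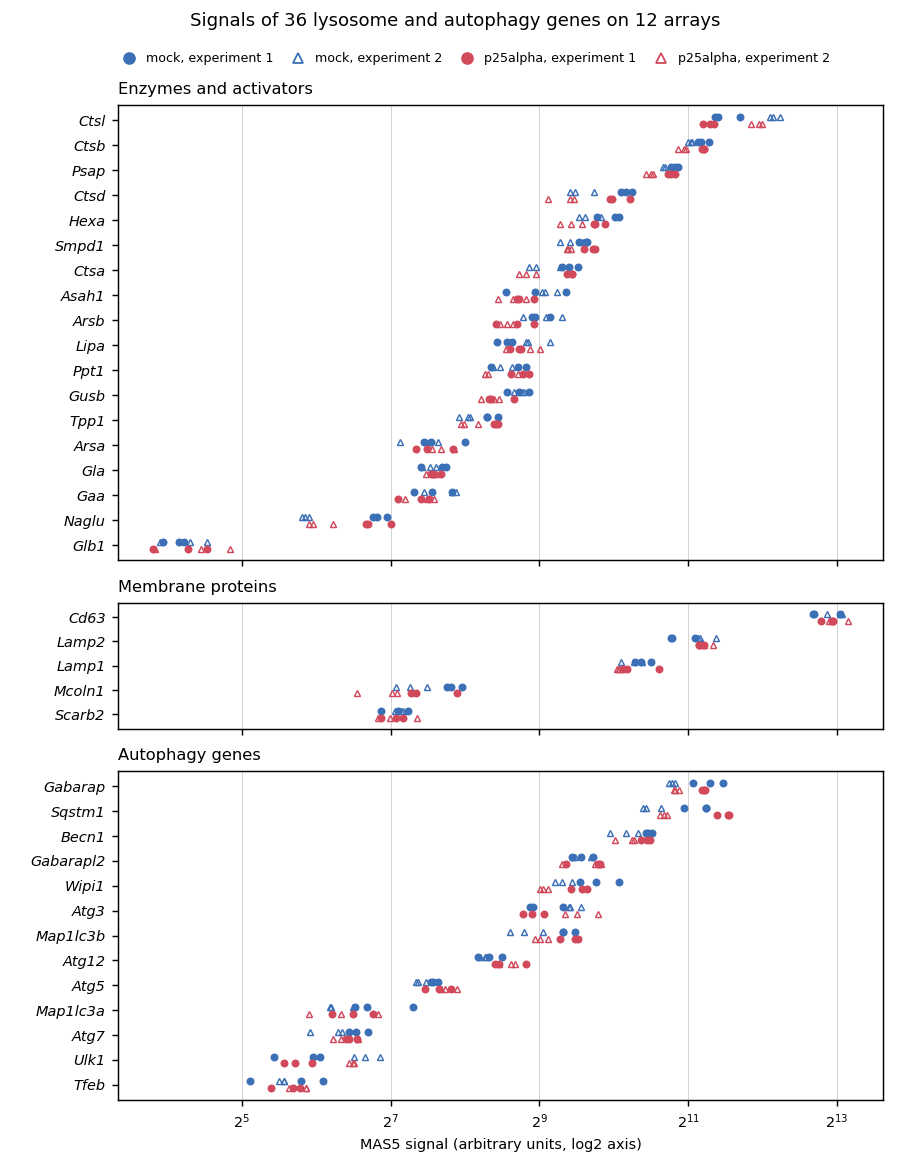
MAS5 signal (log2 axis) of the 36 genes on each of 12 arrays, mock in blue and p25alpha in red, experiment 1 filled and experiment 2 open. Signals of different probe sets are not comparable as levels; within a row, mock and p25alpha points overlap for all 36 genes.

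The authors' deposited table of change calls for single array pairs gave, over the 36 genes and 6 comparisons of p25alpha with mock, 4 increases, 7 decreases and 1 marginal call among 216. That is 5.09% increased or decreased, beside 4.62% over all tested probe sets. In the authors' deposited table, Gusb was called decreased at 12 h in both experiments and at 16 h in experiment 1, and Wipi1 at 16 h in both. Hexa and Gaa had 1 decrease each and Sqstm1, Atg12, Lipa and Gabarapl2 1 increase each in the authors' deposited table. For Arsb the authors' deposited table gave log2 ratios of -0.1 (no change) and -0.2 (marginal decrease) at 12 h in experiments 1 and 2, where the differences of the MAS5 signals were -0.72 and -0.84, and no change at 8 and 16 h. Such gaps were not confined to Arsb. Mcoln1 had deposited ratios of 0.4 and -0.1 at 8 h, -0.2 and 0.1 at 12 h, and -0.1 and -0.1 at 16 h, all no change. Asah1 at 16 h had -0.1 and -0.1, beside signal differences of -0.64 and -0.43. Gusb at 12 h was closer, with -0.3 and -0.4 beside -0.54 and -0.45.

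In mock cells none of the 36 genes passed the threshold at 12 or 16 h against 8 h by limma, with a background of 0.00520% and 0%, and 2 genes (5.56%) had an unadjusted p under 0.05 at each time, beside 5.21% of all tested probe sets at 12 h and 7.40% at 16 h. At 16 h, 25 of the 36 read higher than at 8 h, beside 9018 of the 19248 tested probe sets. The median was 0.11, beside -0.02 for all tested probe sets. By class the 25 were 15 of 18 enzymes, 4 of 5 membrane proteins and 6 of 13 autophagy genes, which had a median of -0.08. Mock and p25alpha comparisons at a given time share these mock arrays.

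The 2 experiments differed widely over all tested probe sets, and these genes were called about as often. Between experiment 2 and experiment 1, 17 of the 36 passed the threshold, 4 higher and 13 lower in experiment 2, which is 47.2% beside a background of 51.0% (29.4% higher, 21.6% lower). By class these were 9 of 18 enzymes, 1 of 5 membrane proteins and 7 of 13 autophagy genes. Naglu, an enzyme of heparan sulfate breakdown, was lower in experiment 2 by a log2 difference of -0.88 ± 0.10 (adjusted p = 0.000751 by limma), with signals of 101.7 to 128.8 in experiment 1 and 56.2 to 74.5 in experiment 2. Sqstm1 was lower (-0.74 ± 0.08), as were Ctsd (-0.67 ± 0.09), Mcoln1 (-0.59 ± 0.11), Wipi1 (-0.48 ± 0.07), Map1lc3b (-0.48 ± 0.10), Ctsa, the protective protein cathepsin A (-0.48 ± 0.08), and Gabarap (-0.43 ± 0.08). Ulk1, the kinase that starts autophagy, was higher (0.80 ± 0.13), as were Ctsl (0.66 ± 0.07), Atg3, the enzyme that attaches lipid to ATG8 proteins (0.53 ± 0.10), and Lipa, the acid lipase (0.26 ± 0.09). Tpp1, Hexa, Becn1, Smpd1 and Ctsb were lower by smaller amounts, -0.36 ± 0.07 for Tpp1 and -0.22 ± 0.07 for Ctsb.

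The experiment difference exceeded the p25alpha difference in size for 26 of the 36 genes, with median sizes of 0.23 and 0.12, beside 0.41 and 0.14 over all tested probe sets. That background holds a larger share of dim probe sets, since 30 of the 36 genes lay above the median signal. Probe sets of a gene did not always move alike between experiments. Of 22 other measured probe sets 13 had the sign of the chosen one and 9 the opposite sign, and those of Sqstm1 gave -1.75, 0.55 and 0.80. The ratio of the 3′ to the 5′ actin probe set, which rises when RNA is degraded, was 2.14 to 3.12 in experiment 1 and 4.65 to 7.05 in experiment 2, while the same ratio for GAPDH was 0.97 to 1.09 in experiment 1 and 0.90 to 1.03 in experiment 2. The part of RNA quality in these differences was not tested.

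**Figure D4:**
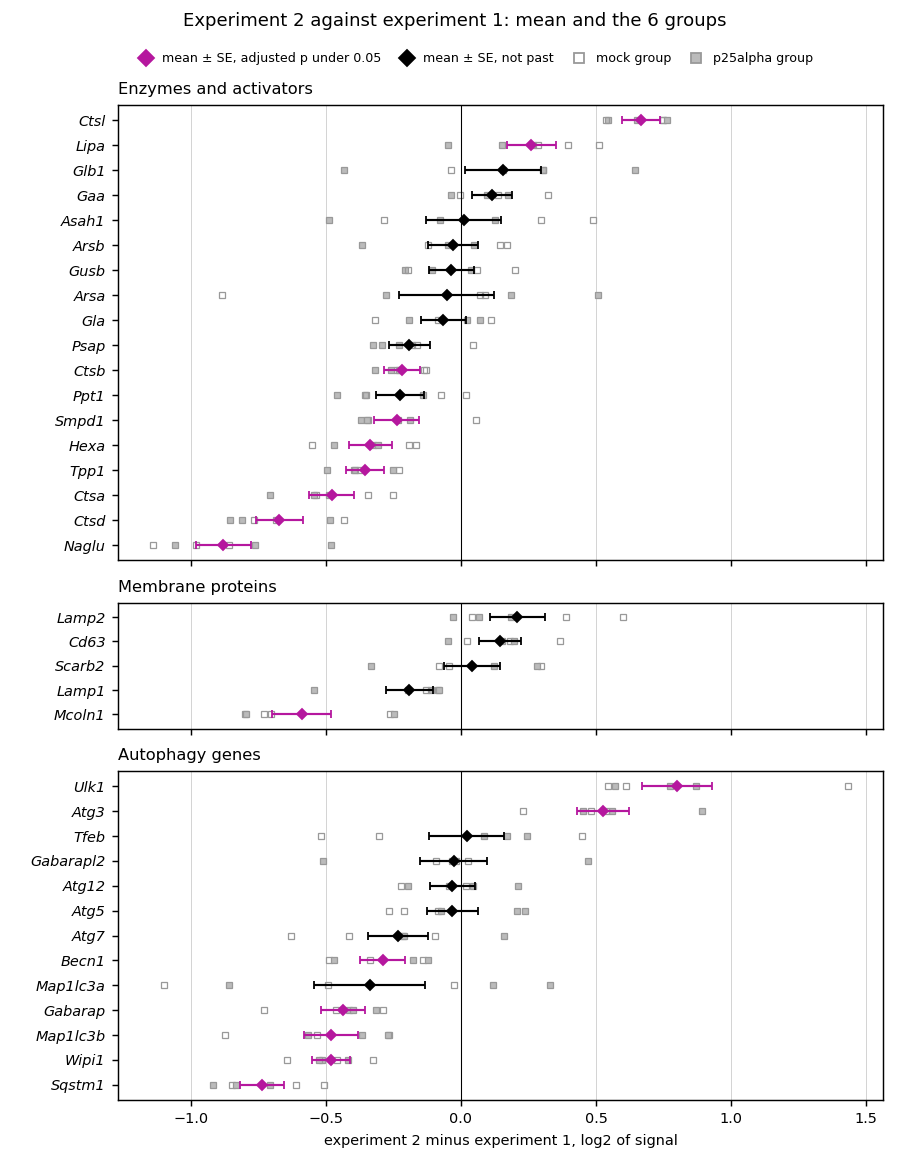
Difference in log2 signal between experiment 2 and experiment 1 for the 36 genes. Diamonds with bars are the fitted mean ± SE (purple where the adjusted p was under 0.05, 17 genes), and grey squares are the 6 groups, open for mock and filled for p25alpha.

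Beyond these genes, 5 further lists of the same pathways held 107 genes, of which 77 were measured. By limma 0 of the 77 passed the threshold for p25alpha against mock at any time or over the 3 times, and 9 (11.7%, beside 14% of all tested probe sets) had an unadjusted p under 0.05 over the 3 times, 3 positive and 6 negative. Over the 3 times 41 were positive and 36 negative, with a median of 0.0030. The sign was the same in all 6 pairs for 6 of the 77 on the positive and 6 on the negative side. Over all tested probe sets this was so in 5.99% and 5.01%. The genes named next are the 2 with the largest difference over the 3 times in each list, so their values chose them. Sumf1, which activates the sulfatases, Arsb among them, had signals of 240.8 to 401.7 and a difference of -0.34 ± 0.07 (adjusted p = 0.124 by limma), negative in all 6 pairs. Of the proton pump subunits, Atp6v1f gave 0.31 ± 0.09 and Atp6v1h -0.21 ± 0.09, each with the same sign in all 6 pairs. Pik3r4, the regulatory subunit of the autophagy lipid kinase, gave -0.26 ± 0.09, and Rragd, a GTPase of the lysosomal nutrient-sensing complex, gave 0.66 ± 0.19 at signals of only 8.0 to 42.5. Atg13, of the complex that starts autophagy, gave -0.25 ± 0.11. The remaining genes named as farthest from 0 in their lists were dim and called present on 7 arrays or fewer. Manba, the lysosomal beta-mannosidase, gave 1.40 ± 0.27 (adjusted p = 0.121 by limma) at signals of 1.1 to 17.0, positive in all 6 pairs but present on 4 arrays. Cln3 gave 1.04 ± 0.86, Abca2 0.29 ± 0.21 and Tsc1 -0.47 ± 0.50.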

How the data were processed

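Total RNA of the OLN cells was labelled as biotinylated cRNA and hybridised to 1 array per sample, per the labels' protocols. The authors deposited MAS5 intensity values on a linear scale, per the submitters' processing notes, scaled by the authors to a 2% trimmed mean of 150.1. Detection calls, and log2 ratios of array pairs with their change calls, were deposited too, per the file headers. Genome builds were not given in the sources used here, and RefSeq GRCr8 was used for names and promoter windows only.

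Signals were floored at 0.1 and log2 was taken. Probe sets present on at least 2 of 12 arrays (19248, 61.9%) were fitted with limma 3.58.1 in R 4.3.3 (lmFit, eBayes) with 6 group means and the experiment as a block, leaving 5 residual degrees of freedom, and p-values were Benjamini-Hochberg adjusted with a threshold of 0.05. Log values of dim probe sets are noisy. Experiment numbers come from the labels. Arrays were paired by number because same-numbered arrays belong to 1 experiment. Over 15 pairs of groups the deviations of same-numbered arrays had correlations of 0.47 to 0.57. The code was tested on simulated data.

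Genes named with values were those past the threshold in any comparison, in each class up to 3 highest and lowest with the same sign in all pairs, the brightest and dimmest probe set, and Tfeb, Mcoln1, Sqstm1, Lamp1, Lamp2, Ctsd and the ATG8 family. Arsb, Gusb, Gaa, Asah1, Atg5 and Atg12 fall outside this rule and were added after their values were seen. The members and lists were chosen with earlier results of these data known. Alternatives were other block treatments, scalings, filters, an offset of 50, eBayes with trend and robust, subsets of arrays, and averaging the probe sets of each gene.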

Additional observations from a re-analysis of the deposited data

How the results depend on the processing

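That none of the 36 genes passed for p25alpha against mock depended on the setting. With only probe sets above the median signal, 2 genes passed over the 3 times (Arsb, adjusted p = 0.0225, and Gusb, 0.0413, by limma) and 2 at 12 h (Arsb, 0.0444, and Gaa, 0.0464). With an offset of 50 before log2, 2 passed over the 3 times (Arsb, 0.0126, and Gusb, 0.0388) and 1 at 12 h (Arsb, 0.0197). With eBayes with trend and robust, 3 passed over the 3 times (Arsb, 0.0138, Gusb, 0.0427, and Sqstm1, 0.0473) and 1 at 12 h (Arsb, 0.0190). Under the other settings, and with any 1 array left out, 0 of the 36 passed in these comparisons. The 17 genes past the threshold between experiments became 13 to 22 under other settings and 14 to 15 with an array left out.

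Counts over all tested probe sets moved more. Over the 3 times 46 passed, and 4 without the replicate block, 17 with no filter on dim probe sets, 357 above the median signal, 466 with the offset, 419 with trend and robust, and 12 to 33 with an array left out. At 8 h 0 passed, and 10 above the median signal, 11 with the offset, 10 with trend and robust, and 0 to 3 with an array left out. At 12 h 11 passed, and 2 without the replicate block, 0 with no filter, 46 above the median signal, 59 with the offset, 57 with trend and robust, 0 with only the 4 arrays compared, and 0 to 10 with an array left out. At 16 h 11 passed, and 0 without the replicate block, 0 with no filter, 52 above the median signal, 75 with the offset, 64 with trend and robust, 0 with only the 4 arrays compared, and 0 to 30 with an array left out. For time dependence 0 passed, and 1 with the offset and 0 to 5 with an array left out. Between experiments 9814 of 19248 passed, and 6422 above the median signal. Fewer probe sets are tested above the median signal, so a lower count there is not a lower share. In mock cells 1 passed at 12 h, and 0 without the replicate block, with quantile normalization, with no filter, above the median signal and with the offset, 4 with trend and robust, and 0 to 1 with an array left out. In mock cells 0 passed at 16 h, and 2 with a random replicate block, 50 above the median signal, 77 with the offset, 65 with trend and robust, and 0 to 11 with an array left out. The causes were not tested, except that a filter changes the number tested and a subset the number of arrays.

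Of 492 values of single genes under the 10 settings that leave out no array, 486 kept their direction. The sign turned with quantile normalization for Atg3 (0.00014), Cd63 (-0.059) and Glb1 (-0.0062), with median centring for Becn1 (-0.0074), and with probe sets of each gene averaged for Ulk1 (0.029) and, between experiments, Ctsb (0.22). With an array left out 667 of 696 kept their direction, and the differences over the 3 times that turned ranged over -0.0873 to 0.0594 for Atg3, -0.0389 to 0.0405 for Becn1, -0.0028 to 0.0851 for Cd63, -0.064 to 0.0542 for Gabarap, -0.012 to 0.19 for Gabarapl2, -0.00521 to 0.23 for Glb1, -0.0487 to 0.0748 for Lipa, -0.30 to 0.00756 for Map1lc3a, -0.0221 to 0.14 for Naglu, -0.12 to 0.02995 for Scarb2, -0.0291 to 0.0881 for Smpd1, -0.0094 to 0.21 for Tfeb. The Glb1 values rest on signals called absent, and no direction is read from them. Without a turn of sign, 1 array left out moved the difference over the 3 times by over 1.5 times for Lamp1 (-0.20 without p25alpha 8 h of experiment 1, -0.064 without that of experiment 2), Lamp2 (0.076 and 0.23 without mock 12 h of experiments 1 and 2), Map1lc3b (0.21 and 0.052 without mock 16 h of experiments 1 and 2), Psap (-0.090 without mock 12 h of experiment 2) and Ulk1, Ctsa, Ctsb and Tpp1, and that of Mcoln1 at 12 h (-0.26 without p25alpha 12 h of experiment 1) and Sqstm1 at 8 h (0.20 without mock 8 h of experiment 1). Between experiments, Smpd1, Ctsb, Lipa and Becn1 no longer passed with median centring or with no filter, Smpd1 also not with quantile normalization, and Sqstm1 and Wipi1 no longer passed with probe sets of each gene averaged (-0.29 and -0.13).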
